A study of Mus musculus with 4 samples.

Results

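Sulf1, Sulf2, Ext1, Ext2, Ndst1, Ndst2, Hs2st1, Hs6st1, Hs6st2 and Hs3st1, the sulfatases and main synthesis enzymes of heparan sulfate, were described as a listed set of 10 genes, found by their symbols in the annotation of the array. The list was chosen by the role of the genes and with the log2 levels of these same arrays already seen, so their levels are given as a description. Of these, 9 had probe sets annotated to a single gene symbol, 22 probe sets in all, among 18193 genes and 34945 such probe sets on the array. Ndst1 was not analysed here. Where a gene had several probe sets, the 1 with the highest average level stood for it, and every other probe set is given beside it.

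Heparan sulfate is a long sugar chain carried by core proteins of the cell surface and the basement membrane, and it holds growth factors and chemokines near their receptors. In the Golgi, EXT enzymes build the chain, NDST enzymes add the first sulfate groups to it, and the 2-O, 6-O and 3-O sulfotransferases then add more at defined positions. After the chain has reached the surface, the sulfatases SULF1 and SULF2 remove 6-O-sulfates again. In endothelial cells the sulfation pattern is known to affect signalling by FGF and VEGF, and rare 3-O-sulfated stretches bind antithrombin.

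The cells were SVEC4-10, an endothelial line derived from mouse lymph node vessels and transformed with SV40, and the study profiled their RNA to find transcripts that depend on the actin-modifying redox enzyme MICAL2. There were 4 groups with 1 array each: untreated cells, cells transduced with an insert-free pLENTI6/Block-iT lentiviral vector, and cells transduced with the same vector carrying a hairpin RNA directed at Mical2 or at Mical3, a related enzyme. Transduced cells were selected with blasticidin, which the untreated cells had not gone through per the labels' protocols. Each array received RNA pooled from 3 biological replicates, which hides the spread between replicates, and without replicate arrays no test could be run.

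The hairpins are shown because the hairpin is the designed difference between the arrays. Each has a stem of 23 bases, with its sense strand in capitals, and a loop of 9 bases.
Hairpin against Mical2: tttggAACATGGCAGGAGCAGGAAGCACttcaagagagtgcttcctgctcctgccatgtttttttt
Hairpin against Mical3: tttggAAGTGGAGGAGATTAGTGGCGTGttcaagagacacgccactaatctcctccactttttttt

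On the array of its own hairpin, neither target read 2-fold below both controls. On the main probe set, Mical2 read 5.60 on the untreated array, 5.14 on the vector array, 5.53 on the Mical2-labelled array and 6.08 on the Mical3-labelled array. Mical3 read 7.39, 7.29, 6.83 and 7.24 in the same order. Mical2 lay close to the overall median of 5.41, where a fall may not register in full. Its other probe set lay there too, with 5.33 (untreated), 4.64 (vector) and 5.53 (Mical2-labelled), and was highest on the Mical3-labelled array. The Mical2 levels show no fall but can say little about the label. Mical3 lay above that median on all 4 arrays, and its levels go against its label. The hairpin arrays are named by their labels only. A direction drawn from either is a difference between arrays as labelled. Values are log2 expression levels, and a gene is called higher or lower when it differed at least 2-fold (1 on the log2 scale) from each control named, with the highest compared level at or above a floor set at the table's overall median, 5.41. Of 12 endothelial markers, 7 lay below that floor on all 4 arrays, Pecam1, Cdh5, Tek, Tie1, Emcn, Cldn5 and Erg, while Eng, endoglin, stood between 7.31 and 7.58. Flt1, a VEGF receptor, stood between 7.70 and 7.76 by its main probe set and between 6.68 and 7.53 by the next. Of 4 lymphatic endothelial markers, Prox1 and Lyve1 lay below the floor on all arrays, and Pdpn, podoplanin, lay between 11.67 and 12.50. Flt4, the receptor of VEGF-C, was called lower on both hairpin arrays, at 7.66 (Mical2-labelled) and 7.55 (Mical3-labelled) against 8.90 (vector) and 9.18 (untreated), though its other probe set (6.04 and 6.15 against 6.43 and 6.57) was short of 2-fold. Of 10 fibroblast and mural markers, 8 reached the floor on at least 1 array. Their summed linear level was 11497 on the vector array and between 45769 and 63314 on the others. On the Mical3-labelled array these markers went opposite ways. Col1a2 (6.19 against 14.49 untreated), Pdgfrb (3.55 against 10.28) and Pdgfra (7.07 against 10.40) were lower there than on the untreated array, and Tagln was higher (13.45 against 10.27). Col1a2 and Pdgfrb also lay below the vector array (11.64 and 8.13), whereas Pdgfra lay above it (6.16). The other Pdgfrb probe set differed less, with 5.56 against 6.97 untreated. On the Mical2-labelled array none of the 8 was called against both controls.

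**Figure D1:**
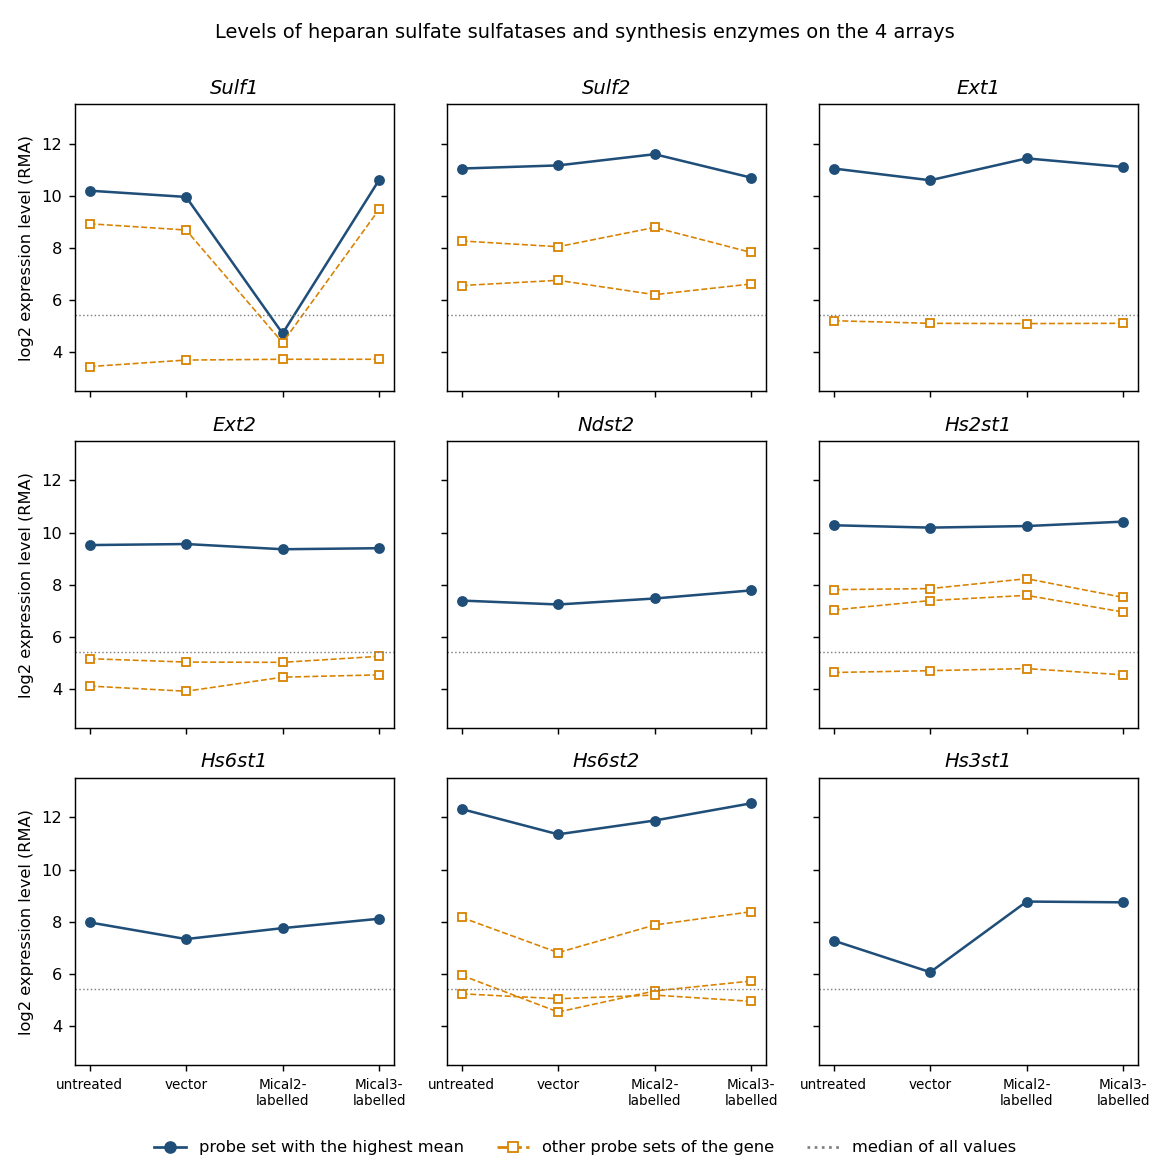
Log2 expression level of each measured gene (y axis) on the 4 arrays (x axis), with 1 line per probe set and a dotted line at the median of all values, 5.41. Sulf1 is low on the Mical2-labelled array by 2 probe sets, Hs3st1 is high on both hairpin arrays, and 3 probe sets of Hs6st2 are lowest on the vector array.

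On the Mical2-labelled array the transcript of Sulf1 read below the floor, against high levels on the other 3 arrays, while every other measured enzyme stayed above it by its main probe set. Hs3st1, the 3-O-sulfotransferase, was higher there by at least 2-fold than on both control arrays, and it was about as high on the Mical3-labelled array. The remaining 7 genes were not called against both controls on either hairpin array. In counts, 1 of 9 genes was called lower and 1 higher on the Mical2-labelled array, where 1.75% of 12072 genes over the whole array were called lower and 0.977% higher, 2.73% in all. On the Mical3-labelled array it was 1 higher and none lower, with 1.38% of 12011 genes called higher and 2.49% lower, 3.87% in all. Since the genes were listed with such results known, the counts are a description only.

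**Figure D2:**
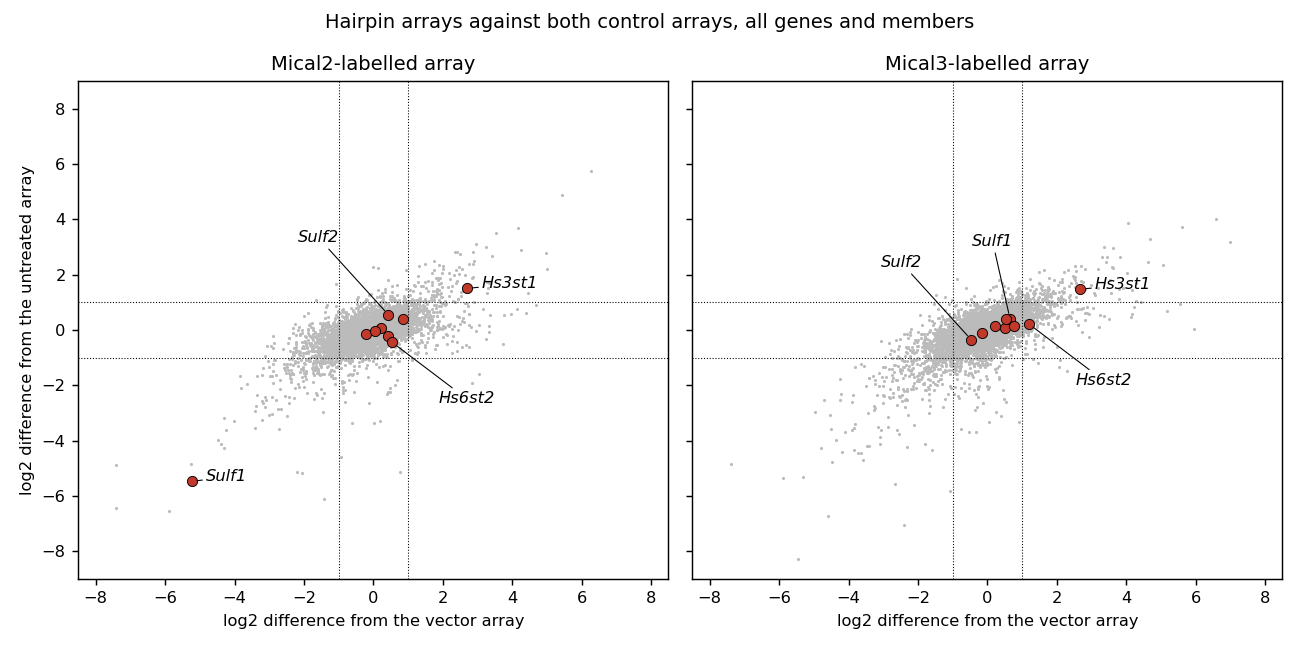
Log2 difference of each hairpin array from the vector array (x axis) and from untreated cells (y axis), for all genes that reach the floor on any array (grey) and the 9 measured genes (red), with dotted lines at 2-fold. Sulf1 lies at -5.24 and -5.48 on the Mical2-labelled array but inside the lines on the Mical3-labelled array, and Hs3st1 lies outside them on both.

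Sulf1 encodes a secreted endosulfatase. Its main probe set (1438200_at) read 10.19 on the untreated array, 9.95 on the vector array, 4.71 on the Mical2-labelled array and 10.60 on the Mical3-labelled array. The low value was thus confined, among these 4 arrays, to the Mical2-labelled array. Against the vector array the difference was -5.24 and against the untreated array -5.48, or 37.8-fold and 44.6-fold lower. Because the level lay below the floor, where RMA values are compressed, these folds may understate the difference.

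Another Sulf1 probe set (1436319_at) showed the same shape, with 8.92, 8.68, 4.36 and 9.47 in the order untreated, vector, Mical2-labelled and Mical3-labelled. By this probe set the level was 20.0-fold below the vector array and 23.6-fold below the untreated array. The last Sulf1 probe set (1446416_at) was below the floor on all 4 arrays, between 3.44 and 3.72, and could not register a lower level.

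On the Mical3-labelled array, Sulf1 was at its highest, 0.65 above the vector and 0.41 above the untreated array by the main probe set and 0.79 and 0.55 by the other. These differences are short of 2-fold. Probe sets of the same gene scattered by 0.36 (standard deviation) in the difference between the Mical2-labelled array and the vector array, and by 0.40 in that between the Mical3-labelled array and the vector array. This scatter is between probe sets reading the same RNA and does not measure the spread between replicates or arrays. Set directly against each other, the hairpin arrays differed in Sulf1 by -5.89 (Mical2-labelled minus Mical3-labelled). It was the 1 gene of the 9 called in that comparison, in which 3.72% of 11928 genes were called lower and 3.81% higher, 7.53% in all.

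The 5 genes whose pattern over the 4 arrays was nearest to that of Sulf1, by the distance between centred log2 levels among 12166 genes, were Lpl, Fkbp11, Dmd, Nudt12 and Rab29, at distances from 0.97 to 1.70. Lpl encodes lipoprotein lipase, an enzyme that is held at the endothelial surface by heparan sulfate and by GPIHBP1. It read 11.91 on the untreated array, 11.23 on the vector array, 5.35 on the Mical2-labelled array and 11.13 on the Mical3-labelled array. Dmd, the dystrophin gene, read 7.28, 7.14, 3.74 and 8.06 in that order. Another probe set of Lpl (8.76, 7.93, 4.78 and 8.30) and another of Dmd (6.57, 6.23, 5.13 and 7.54) were also lowest on the Mical2-labelled array, whereas the next Fkbp11 probe set was flat (5.58, 5.69, 5.92 and 5.78). On the Mical2-labelled array the levels of Sulf1, Lpl and Dmd lie below the floor, so the depth of their dips is uncertain, and likeness over 4 single arrays is a description of these arrays.

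**Figure D3:**
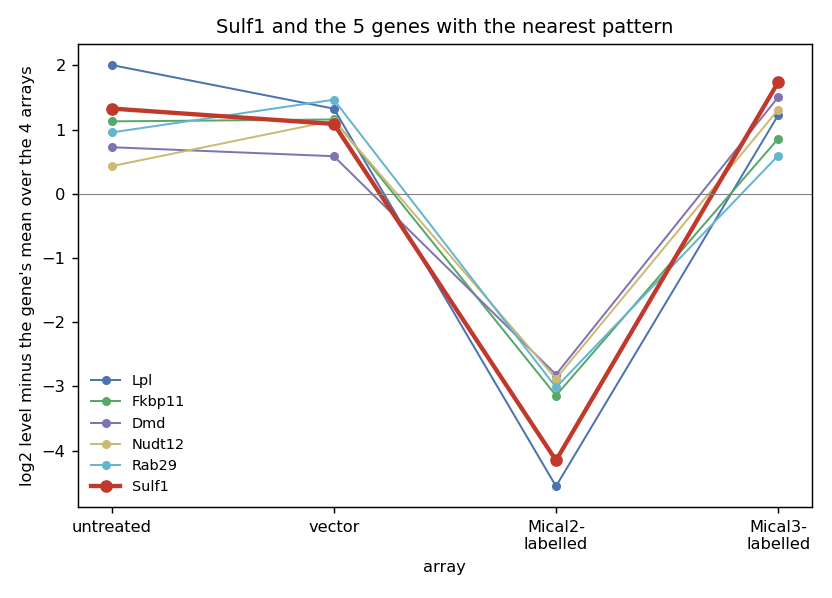
Log2 level minus the gene's own mean over the 4 arrays (y axis) for Sulf1 (thick red line) and the 5 genes with the nearest pattern, by array (x axis). All 6 lines dip on the Mical2-labelled array, Lpl and Sulf1 the furthest.

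The genes next to Sulf1 in the gene order were looked up after its level had been seen. Of the 3 nearest measured genes on each side, Cpa6, A830018L16Rik, Slco5a1 and Prdm14 were below the floor on all arrays. The other 2 did not share the low level of Sulf1. Ncoa2, a nuclear receptor coactivator, read 8.60 on the untreated array, 9.06 on the vector array, 8.25 on the Mical2-labelled array and 8.37 on the Mical3-labelled array. Prex2, an exchange factor for the small GTPase RAC, went the other way, with 5.53 on the Mical2-labelled array against 4.24 (vector) and 4.46 (untreated).

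Sulf2 encodes the other endosulfatase, which acts on the same 6-O-sulfates. Its main probe set (1447602_x_at) read 11.04 on the untreated array, 11.16 on the vector array, 11.59 on the Mical2-labelled array and 10.69 on the Mical3-labelled array. It was thus highest where Sulf1 was lowest and lowest where Sulf1 was highest. The sizes were small, 0.43 against the vector and 0.55 against the untreated array on the Mical2-labelled array, and -0.47 and -0.35 on the Mical3-labelled array. A further Sulf2 probe set (1430388_a_at) had the same order of the hairpin arrays, with 8.26, 8.04, 8.78 and 7.82.

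The remaining Sulf2 probe set (1442408_at) went the opposite way on the Mical2-labelled array, with 6.55, 6.75, 6.20 and 6.61 in the order untreated, vector, Mical2-labelled and Mical3-labelled. The probe sets with the letters x or a in their identifier can cross-hybridise with other transcripts or read several transcripts, and without them the Sulf2 difference between the Mical2-labelled array and the vector array was -0.55 in place of 0.43. The direction of Sulf2 therefore rests on the choice of probe set. The genes nearest to the main Sulf2 pattern were Ttll5, Pdp1, Nadk2, Slc19a1 and Traf5, at distances from 0.04 to 0.09.

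The polymerase genes were called in none of the 4 comparisons. Ext1 and Ext2 encode the subunits of the enzyme complex that lengthens the chain. Ext1 read 11.04 on the untreated array, 10.59 on the vector array, 11.43 on the Mical2-labelled array and 11.10 on the Mical3-labelled array, so the vector array was lowest and the Mical2-labelled array highest. The difference between them was 0.84. Ext2 read 9.52, 9.56, 9.36 and 9.40 in the same order, a range of 0.20 that 91.6% of genes at or above the floor reached or passed. The other probe sets of both genes lay below the floor on all arrays, between 5.09 and 5.20 for Ext1 and between 3.91 and 5.25 for Ext2.

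Ndst2 encodes an enzyme that removes acetyl groups and adds N-sulfate groups, the step that later sulfation builds on. It read 7.39 on the untreated array, 7.24 on the vector array, 7.47 on the Mical2-labelled array and 7.78 on the Mical3-labelled array, by its 1 probe set. The levels differed by at most 0.54, close to the median range of all genes of 0.55.

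Hs2st1, the only 2-O-sulfotransferase of heparan sulfate in the mouse, was the steadiest gene after Ext2 by its main probe set. That probe set read 10.28 on the untreated array, 10.19 on the vector array, 10.25 on the Mical2-labelled array and 10.42 on the Mical3-labelled array. The next 2 probe sets in level differed more. They read 7.81, 7.85, 8.23 and 7.51, and 7.03, 7.39, 7.59 and 6.95, in the same order of arrays. Both were highest on the Mical2-labelled array and lowest on the Mical3-labelled array, by 0.72 and 0.64, whereas the main probe set differed by -0.17 there. The dimmest probe set lay below the floor, between 4.54 and 4.78.

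The 6-O-sulfotransferases, whose products the sulfatases remove, did not follow Sulf1. Hs6st1 read 7.97 on the untreated array, 7.33 on the vector array, 7.75 on the Mical2-labelled array and 8.11 on the Mical3-labelled array. Hs6st2 read 12.32, 11.35, 11.88 and 12.54 in that order by its main probe set (1450047_at). Both genes were lowest on the vector array, and neither was called on a hairpin array against both controls.

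For Hs6st2 the low reading on the vector array was seen by 3 of its 4 probe sets. The difference from the untreated array was -0.97 by the main probe set, just short of 2-fold, -1.35 by the next (8.16 against 6.81) and -1.41 by a dimmer one (5.94 against 4.53). The last probe set lay below the floor throughout, between 4.94 and 5.23. On the Mical3-labelled array the main probe set stood 1.19 above the vector array but only 0.22 above the untreated array, so the call of Hs6st2 depends on which control is taken.

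Hs3st1 encodes the 3-O-sulfotransferase known for making the antithrombin-binding stretches of endothelial heparan sulfate. Its 1 probe set (1423450_a_at) read 7.27 on the untreated array, 6.06 on the vector array, 8.77 on the Mical2-labelled array and 8.74 on the Mical3-labelled array. Both hairpin arrays lay above both controls, and the vector array was the lowest. The Mical2-labelled array was higher by 2.71 than the vector array and by 1.50 than the untreated array, or 6.54-fold and 2.83-fold. The Mical3-labelled array was higher by 2.68 and 1.47, or 6.41-fold and 2.77-fold. Between the hairpin arrays the difference was 0.03.

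Among genes called higher, Hs3st1 ranked 53 of 118 on the Mical2-labelled array and 57 of 166 on the Mical3-labelled array. These comparisons share both control arrays, so the agreement of the hairpin arrays is not independent. The value rests on a single probe set of the kind that can read several transcripts, and no other probe set of the gene was there to set beside it. Its neighbours in the gene order did not move by as much against both controls. Wdr1, which encodes an actin-disassembly factor, read 11.26 on the untreated array, 10.58 on the vector array, 11.69 on the Mical2-labelled array and 11.58 on the Mical3-labelled array. Rab28 stayed between 9.86 and 10.24.

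The insert-free vector was the control for transduction and selection. With 1 array per group, their effect cannot be told apart from any other difference between the vector and untreated arrays. Hs3st1 was lower on the vector array than on the untreated array by 1.21 on the log2 scale (6.06 against 7.27), and it was the 1 gene of the 9 called, where 2.57% of 11849 genes were called lower and 3.26% higher, 5.83% in all. Hs6st2 at -0.97 and Hs6st1 at -0.64 came next. By the main probe sets, the vector array held the lowest level of 6 of the 9 genes, against 26.9% of 12166 genes over the whole array. The 6 were Ext1, Ndst2, Hs2st1, Hs6st1, Hs6st2 and Hs3st1. For Hs2st1 and Ndst2 the differences from the untreated array were small, -0.09 and -0.15. The other Hs2st1 probe sets were lowest on the Mical3-labelled array. The median difference between vector and untreated was -0.24 over the 9 genes and 0.04 over all genes tested. Of the fibroblast and mural markers, 8 of the 8 at or above the floor were called lower on the vector array than on the untreated array, and 6 of them were lowest of all arrays there, while Col1a2 and Pdgfrb were lowest on the Mical3-labelled array. Calls on the vector array were not confined to these markers. Of 3 epithelial markers at or above the floor, 2 were also called lower there than on the untreated array, Krt8 by 1.85 and Krt18 by 1.01. Of 3 such leukocyte markers, 1 was called higher, Cd68, by 2.07. The part of these marker lists in the differences of the 9 genes was not tested. In such bulk RNA, fewer cells of a type and less RNA per cell cannot be told apart.

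The choice of control thus sets the summary of the group. From the vector array, the 9 genes had a median difference of 0.42 on the Mical2-labelled array and 0.54 on the Mical3-labelled array, beside -0.05 and -0.03 over all genes. From the untreated array the medians were -0.03 and 0.14, beside -0.03 and 0.01. Sulf1 and Hs3st1 kept their directions against either control on the Mical2-labelled array, which the rule that called them requires.

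Promoters are shown for Hs6st2 and Hs3st1, the synthesis genes with the widest ranges over the arrays. They are the 250 bases before each annotated start in RefSeq on GRCm38.p6, read 5′ to 3′ on the gene's strand, with CpG dinucleotides in capitals. Start sites were held for 7 of the 10 genes, and Hs6st2 has an entry for each of 2 starts.
Hs3st1, chr5:39644632-39644881, minus strand: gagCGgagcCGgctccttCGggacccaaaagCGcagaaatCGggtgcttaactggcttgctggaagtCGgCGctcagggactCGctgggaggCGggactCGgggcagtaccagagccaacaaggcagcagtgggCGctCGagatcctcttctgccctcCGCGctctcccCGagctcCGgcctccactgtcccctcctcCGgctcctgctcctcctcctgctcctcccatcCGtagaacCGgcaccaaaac
Hs6st2, start 1, chrX:51681603-51681852, minus strand: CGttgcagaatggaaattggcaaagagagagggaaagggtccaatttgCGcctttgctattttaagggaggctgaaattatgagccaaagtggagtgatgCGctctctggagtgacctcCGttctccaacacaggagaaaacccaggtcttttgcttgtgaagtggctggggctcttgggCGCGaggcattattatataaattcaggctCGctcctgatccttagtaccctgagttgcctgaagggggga
Hs6st2, start 2, chrX:51680478-51680727, minus strand: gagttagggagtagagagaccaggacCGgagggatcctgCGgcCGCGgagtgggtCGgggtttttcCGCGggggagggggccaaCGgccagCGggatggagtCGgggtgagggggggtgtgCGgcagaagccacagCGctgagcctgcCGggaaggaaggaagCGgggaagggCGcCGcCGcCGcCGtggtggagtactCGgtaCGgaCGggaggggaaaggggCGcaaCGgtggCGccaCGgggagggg

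The Hs3st1 window holds 19 CpGs, the first Hs6st2 window 7 and the other 26, where the median over 32851 such windows is 6. Both strands were searched for the CArG box bound by SRF, for the AP-1 motif TGANTCA, the TEAD motif GGAATG, the GC box GGGCGG and the TATA motif TATAAA. These letters occur in 1.47%, 6.75%, 12.6%, 32.7% and 12.4% of all windows. None of them was found in the Hs3st1 window or in the second Hs6st2 window, and the first Hs6st2 window holds TATAAA from position -55 to -50, counted from the start. The Hs6st1 window on chromosome 1 holds 6 GC boxes and 37 CpGs. A match is a description of the letters and no evidence of binding.

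Beside the members stood 8 accompanying lists of 90 genes. They reach beyond the pathway itself, with 16 chondroitin and dermatan sulfate enzymes and 20 growth factors and receptors. Of the 90 genes, 87 were measured and 69 were at or above the floor. Of these, 1 was called higher and 1 lower on the Mical2-labelled array, where 0.977% and 1.75% of genes over the whole array were. On the Mical3-labelled array 2 were called higher and 7 lower, beside 1.38% and 2.49%. Of those 7, 2 were chondroitin and dermatan sulfate enzymes and 3 were growth factors or receptors. Between vector and untreated it was 3 higher and 6 lower, beside 3.26% and 2.57%. Of those 6, 1 was a chondroitin and dermatan sulfate enzyme and 4 were growth factors or receptors. The hairpin arrays set against each other gave the most calls, 11 higher on the Mical2-labelled array and 4 lower, beside 3.81% and 3.72%. None of the 6 measured genes of chain initiation and linker was called on a hairpin array against both controls, and the same held for the 3 relatives of the EXT genes and the 2 other modifying enzymes at or above the floor. Extl2 stood 0.68 lower on the Mical2-labelled array than on the vector array (8.80 against 9.48) by its main probe set. Its other probe set was flat, between 8.27 and 8.36 on all arrays. Glce, the C5-epimerase, lay between 9.88 and 10.56 on all arrays.

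Pxylp1, a phosphatase acting on the xylose of the linker, was higher on the vector array (10.20) than on the untreated array (8.92), stood at 9.97 on the Mical2-labelled array and was lowest on the Mical3-labelled array (8.13). Its other probe set above the floor had the same order, with 8.98, 7.75, 8.54 and 7.14. Of 9 genes that supply sulfate and sugar donors, Papss2, a synthase of the sulfate donor PAPS, was called higher on the Mical3-labelled array, at 9.80 against 7.46 (vector) and 8.21 (untreated). Another Papss2 probe set read 8.91 against 6.64 and 7.34. Papss1, the related synthase, lay between 9.49 and 10.15.

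Among 13 core proteins, 10 were at or above the floor. Agrn, agrin of the basement membrane, was called lower on the Mical2-labelled array, at 9.27 against 10.48 (vector) and 10.32 (untreated), and stood at 9.56 on the Mical3-labelled array. Hspg2, perlecan, read 9.82 on the untreated array, 9.48 on the vector array, 8.83 on the Mical2-labelled array and 8.85 on the Mical3-labelled array, short of 2-fold. Its other probe set, of a similar level, lay between 8.98 and 9.17 on all 4 arrays. Gpc1, a glypican anchored to the membrane by a lipid, was called lower on the Mical3-labelled array, at 6.25 against 9.22 and 8.65, and was highest on the Mical2-labelled array at 9.56. Sdc1, a syndecan, differed between the hairpin arrays, with 11.69 on the Mical2-labelled array and 10.67 on the Mical3-labelled array.

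Of the 9 degradation genes at or above the floor, Gusb, the lysosomal beta-glucuronidase, was called lower on the Mical3-labelled array (8.25, against 9.54 and 9.76 on the control arrays). Its other probe set, at 8.08 there, was between 7.84 (vector) and 8.76 (untreated). Hpse, the heparanase that cuts the chain outside the cell, was close to the floor, at 6.13 in vector cells and 5.07 in untreated cells. Naglu, a lysosomal glucosaminidase, read 7.52 on the untreated array, 8.89 on the vector array, 6.76 on the Mical2-labelled array and 7.75 on the Mical3-labelled array. Sgsh, the lysosomal sulfatase of N-sulfates, was lower on the Mical2-labelled array (6.64) than on the Mical3-labelled array (7.71).

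**Figure D4:**
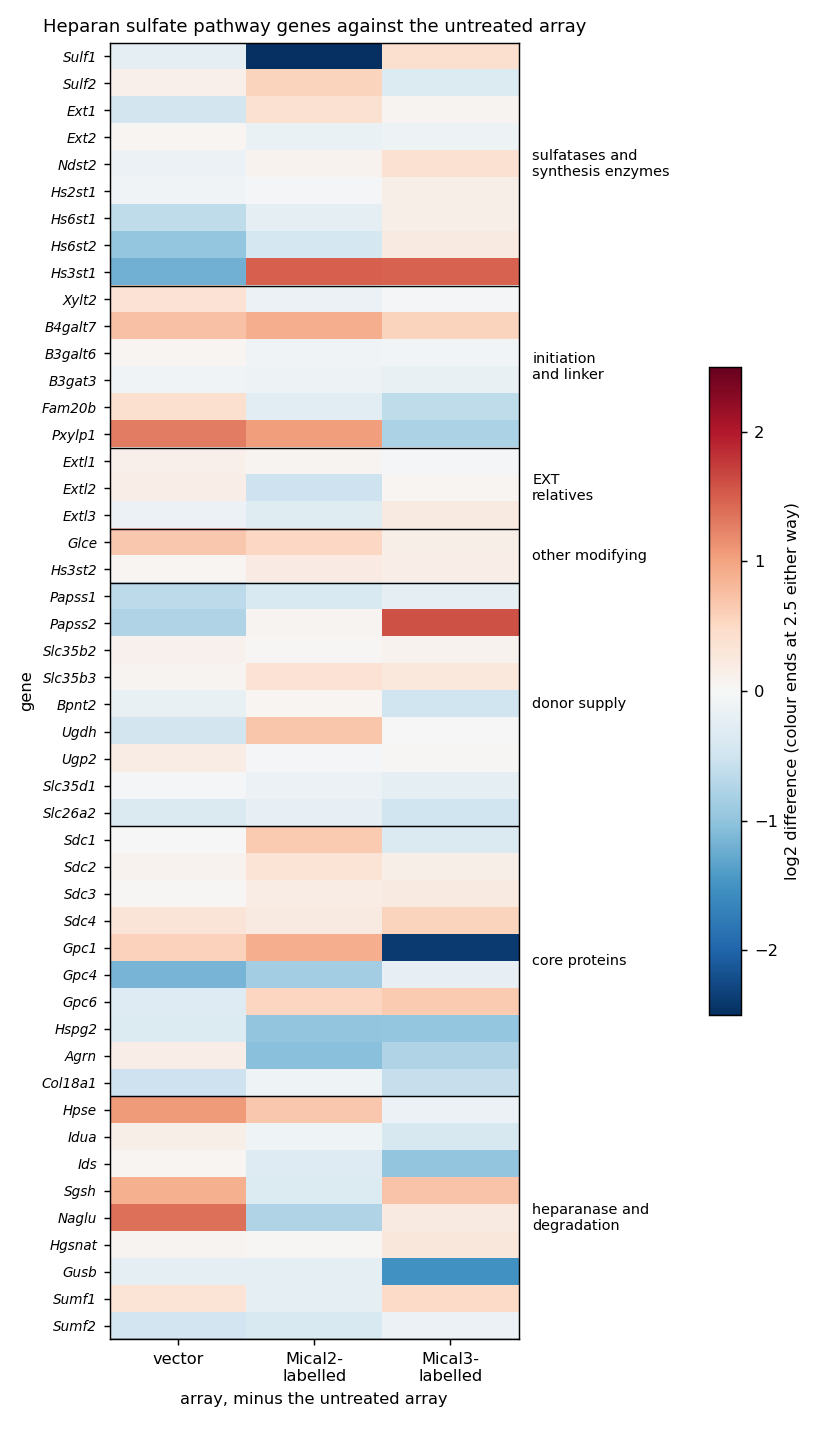
Log2 difference from the untreated array (colour, ending at 2.5 either way) on the vector array and on the hairpin arrays (columns), for the 9 sulfatase and synthesis genes and for the genes at or above the floor of 6 accompanying lists (rows), which leave out the chondroitin sulfate enzymes and the growth factors and receptors. Among these rows the largest differences are Sulf1 on the Mical2-labelled array, at -5.48, and Gpc1 on the Mical3-labelled array, at -2.40.

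The enzymes of chondroitin and dermatan sulfate, a sister chain made on the same linker, had no called gene of 15 on the Mical2-labelled array. On the Mical3-labelled array, the chondroitin sulfotransferases Chst11 (5.04, against 7.64 and 7.77 on the control arrays) and Chst7 (6.45, against 7.45 and 7.75) were called lower. Of 15 growth factors and receptors that bind heparan sulfate, Hbegf was called higher on both hairpin arrays, at 9.19 and 9.34 against 7.67 (vector) and 8.16 (untreated). Its other probe set had the same order but was short of 2-fold against the untreated array, at 8.41 and 8.55 against 7.42 and 7.71, and would not be called on either. Fgfr1, Cxcl12 and Grem1 were called lower on the Mical3-labelled array, at 5.03, 9.32 and 6.03, and none of the 3 was called on the Mical2-labelled array.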

How the data were processed

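Values for 45101 probe sets on 4 arrays, 1 per group, were used as the authors deposited them, as log2 expression levels with 2 decimals. They were made with RMA, which corrects background, normalizes by quantiles and summarises probe sets, per the submitters' processing notes. Its version is not given in the sources used here. Array medians lay between 5.40 and 5.44, and the number of arrays limits the precision. Control probe sets (64) and those with several gene symbols (932) or none (9160) were left out. Symbols were updated through Entrez identifiers against a RefSeq table (GRCm38.p6), which matched 34741 of 34945. A call needed a 2-fold difference and a level at or above 5.41. No test was possible.

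The genes, lists and alternatives were chosen with earlier results of these data known. Named were all members, list genes called in any of 4 comparisons or, in lists without a call, up to 2 with the largest difference of a hairpin array from the vector array, and the 5 nearest patterns of Sulf1 and of Sulf2. Not every such list gene is printed. Alternatives concerned control, fold, floor, probe set, normalization and 16 added on the linear scale. Python 3.11.15, numpy 2.4.6, pandas 2.3.3, statsmodels 0.14.6 and matplotlib 3.10.9 were used.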

Additional observations from a re-analysis of the deposited data

How the results depend on the processing

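No paired analysis was possible because each group had 1 array. Of 46 recomputed counts of called members, 35 stayed within 1.5 times the main count. Sulf1 was called lower on the Mical2-labelled array under each of the 13 alternatives tried, and lower than on the Mical3-labelled array under each of the 10 that apply there. Several of these only loosen the call and could not undo it. They are a single control, the mean of both controls, 1.5-fold and no floor. Hs3st1 carried most of the moves, and most follow from the construction of the alternative. At 3-fold, 1 member was called on the Mical2-labelled array, 0 on the Mical3-labelled array and 0 for vector against untreated. Probe sets with the letters x, s or a in their identifier can cross-hybridise or read several transcripts. Without them, which leaves Hs3st1 unmeasured, these counts were also 1, 0 and 0. With the floor at the 75th percentile (8.01), 0 were called for vector against untreated. At 1.5-fold, 3 were called there (Hs6st1 and Hs6st2 joined) and 3 between the hairpin arrays (Sulf2 and Hs6st2 joined). The probe set with the highest variance gave 2 for vector against untreated, and the vector array as the only control gave 2 on the Mical3-labelled array, with Hs6st2 added in both. Averaging all probe sets brought the Sulf1 difference between the Mical2-labelled array and the vector array to -3.18, since it includes the dim probe set, and adding 16 brought it to -4.57. Of 354 recomputed values, 38 moved by more than the spread between probe sets. No difference of at least 2-fold changed sign, and smaller ones were not counted for this. Some of the smaller ones did change sign. Without the x, s and a probe sets, the Sulf2 difference between the Mical2-labelled array and the vector array went from 0.43 to -0.55. Over the whole array, the genes called on the Mical2-labelled array numbered 329, 1286 with the vector array alone as control, 979 at 1.5-fold and 112 at 3-fold. Pooling and single arrays leave no error for any level.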

Other observations

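The X-linked stretch around Hs6st2, looked up after its levels had been seen, held other genes that differed between the arrays. Among the 3 nearest measured genes on each side, Gpc4, a glypican core protein that carries heparan sulfate, was lower on the vector array (7.63) than on the untreated array (8.80), as Hs6st2 was by 0.97, and stood at 7.93 on the Mical2-labelled array and 8.60 on the Mical3-labelled array. Another Gpc4 probe set gave 6.55 (vector) and 7.63 (untreated). Stk26, a kinase gene, read 9.27 on the untreated array, 6.14 on the vector array, 4.08 on the Mical2-labelled array and 9.36 on the Mical3-labelled array. Mbnl3, a splicing regulator, read 9.91, 9.56, 8.43 and 9.69 in that order, and Rap2c, which lies between Stk26 and Mbnl3, stayed between 10.61 and 11.01. Stk26 and Mbnl3 were lowest on the Mical2-labelled array, unlike Hs6st2. Of the other neighbours, 1700080O16Rik stayed between 5.84 and 5.93, and Usp26 lay below the floor on all arrays. Over the whole array, 5.83% of genes were called between vector and untreated and 7.53% between the hairpin arrays.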
